A study of Mus musculus with 6 samples.

Results

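The BCL2 family described here holds 10 genes, chosen by name among the 55487 genes of the count table, and each of the 10 had enough counts to enter the test of 21141 genes. They are 3 survival genes (Bcl2, Bcl2l1 and Mcl1), 2 pore formers (Bax and Bak1) and 5 BH3-only genes (Bcl2l11, Bbc3, Pmaip1, Bid and Bad). Their RNA was measured in MIN6, a mouse line of insulin-secreting pancreatic beta cells. All 6 libraries came from confluent MIN6 cells transfected with a Lipofectamine reagent, and RNA was collected no later than 3 days afterwards. In 3 libraries the cells had been transfected with full-length parathyroid hormone-related protein (PTHrP, gene Pthlh), and in 3 with the DsRed vector. Each difference below is therefore PTHrP against DsRed. The transfection was transient, the share of cells that took up the plasmid is not given in the sources used here, and every library is from 1 cell line. The series title names endoplasmic reticulum (ER) stress in beta cells as the subject.

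BCL2 family proteins decide whether the outer mitochondrial membrane stays closed. The survival proteins hold Bax and Bak1 and the BH3-only proteins in check. When BH3-only proteins outnumber them, Bax and Bak1 form pores, cytochrome c leaves the mitochondria and caspases are activated. In beta cells under ER stress, the BH3-only genes Bcl2l11 (BIM) and Bbc3 (PUMA) are known links from the stress response to this step. MIN6 was derived from an insulinoma of mice carrying a viral large T antigen, a protein known to bind p53, and Bax, Bbc3 and Pmaip1 are known p53 targets.

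The libraries held 84427033 to 94613684 gene counts. Pthlh had 553 to 797 counts in the PTHrP libraries and 0 to 8 in the DsRed libraries, which fits the labels. PTHrP replicate 2 stood apart. Its counts differed from those of every other library by a chi-square per gene of 46.1 to 56.5, against 8.25 to 31.0 for the pairs without it. The summed level of 8 beta cell markers was 50970 to 57757 counts scaled to library size (CPM) with PTHrP and 52155 to 64088 CPM with DsRed. Ins2 gave most of this sum (33250 to 42680 CPM). Of the 8 markers 1 had a positive and 7 a negative fold change, none past the edgeR test described below. Mafa had 804 CPM in PTHrP replicate 2 and 1319 to 1450 CPM in the other libraries. The 4 markers of other islet cells summed to 135 to 175 CPM and 144 to 153 CPM, nearly all of it glucagon (Gcg), and Sst, Ppy and Ghrl were each at or below 0.139 CPM. Fibroblast markers (4) summed to 4.33 to 4.43 CPM with PTHrP and 4.48 to 4.97 CPM with DsRed. Leukocyte markers (3) summed to 1.81 to 2.33 CPM and 2.32 to 2.77 CPM. Of these, Cd68 had a positive log2 fold change (0.23) and Ptprc (-1.04) and Cd3e (-0.89) negative ones, none past the edgeR test. Endothelial markers (3) summed to 0.720 to 1.93 CPM and 1.04 to 2.97 CPM, and duct and acinar markers (4) to 0.116 to 0.372 CPM and 0.220 to 0.411 CPM. In a bulk library, fewer cells of a type and less RNA per cell cannot be told apart.

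None of the 10 genes passed the test between PTHrP and DsRed. With the edgeR quasi-likelihood test and an adjusted p under 0.05, 0.0426% of all tested genes were called. Neither limma-voom nor its weighted form called a member, and DESeq2 called none of the 8 members to which it gave an adjusted p (Bak1 and Pmaip1 received none). One member, Bax, had an unadjusted p under 0.05 in edgeR, beside 8.90% of all genes. DESeq2 and limma-voom also gave 1 member at that level (8.72% and 9.30% of all genes), and limma-voom with library quality weights gave 3 (16.8% of all genes). Of the fold changes 6 were positive and 4 negative, and their median was 0.05 on the log2 scale, against -0.01 over all genes tested. Bax alone had groups that did not overlap, against 16.3% of all genes (8.45% with PTHrP higher and 7.88% with PTHrP lower).

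The members spanned a wide range of levels. To compare genes, the level is given as TMM-scaled CPM per kilobase of annotated exon (CPM per kb), averaged over the 6 libraries with the SD between them. Mcl1, a short-lived survival protein, had 92.6 ± 5.57 CPM per kb, the 97.9 percentile of the tested genes. Bax followed with 66.1 ± 4.56 CPM per kb and Bbc3 with 40.1 ± 2.64 CPM per kb. Bad, a BH3-only protein that is held inactive by phosphorylation, and Bcl2l1, which encodes the survival protein BCL-XL, had 18.9 and 18.7 CPM per kb. Their ranges over libraries overlapped, so their order is not resolved. Bcl2l11 had 9.29 CPM per kb.

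The other 4 members were low. Bid, the BH3-only protein that caspase-8 cleaves, had 0.864 CPM per kb and Bcl2, the founding survival gene, 0.706 CPM per kb, again with overlapping ranges. Bak1 had 0.340 CPM per kb, and Pmaip1, which encodes the BH3-only protein NOXA, 0.0543 CPM per kb, the 9.8 percentile. All other neighbours in this order had ranges that did not overlap. The order rests on the length used: with the mean length of the annotated coding transcripts, Bax (156 CPM per kb) stood above Mcl1 (148 CPM per kb) and Bcl2l1 (55.9) above Bad (49.8), while the other 6 genes kept their ranks.

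**Figure D1:**
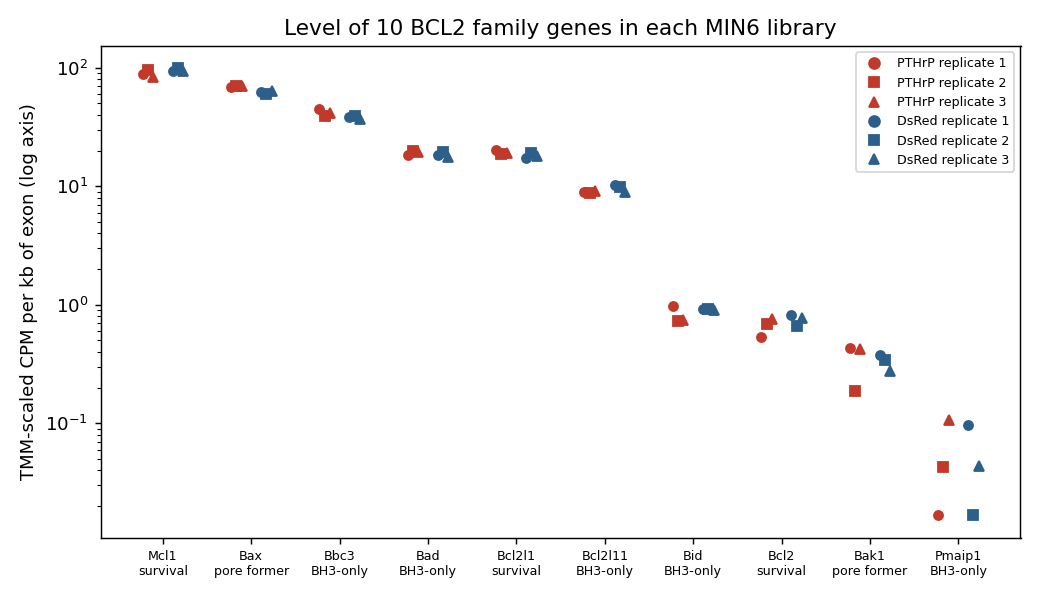
Level of each BCL2 family gene in each library as TMM-scaled CPM per kb of exon, on a log axis, ordered by the mean over the 6 libraries; red points are PTHrP, blue points DsRed, and the shape gives the replicate. From Mcl1 to Bcl2l11 the libraries lie close together, and Bak1 and Pmaip1 scatter most.

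Within each role a single gene held most of the signal, on the CPM per kb scale. Mcl1 made up 80.8% to 84.0% of the 3 survival genes over the 6 libraries, Bcl2l1 15.3% to 18.5% and Bcl2 0.489% to 0.730%. Bax made up 99.4% to 99.7% of the 2 pore formers. Among the BH3-only genes Bbc3 held 56.4% to 61.3%, Bad 25.1% to 28.9%, Bcl2l11 12.3% to 14.9% and Bid 1.05% to 1.39%. These shares rest on exon length and were not computed with the coding transcript length, which moved the levels above. They describe transcripts and not proteins, whose stability differs widely in this family.

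The windows upstream of Bax, Mcl1 and Bcl2 are shown because they belong to the most abundant pore former and to the survival genes at the 2 ends of the level order. Each is the 250 bases before the RefSeq start (build GRCm38.p6), 5′ to 3′ on the gene's strand, and none overlaps an annotated exon in GENCODE M21. Bax lies at chr7:45466899-45467148 (minus strand), Mcl1 at chr3:95658471-95658720 (plus strand) and Bcl2 at chr1:106714291-106714540 (minus strand). Capitals mark TGACG, the core of the cAMP response element, cAMP being a messenger of the PTHrP receptor.
Bax: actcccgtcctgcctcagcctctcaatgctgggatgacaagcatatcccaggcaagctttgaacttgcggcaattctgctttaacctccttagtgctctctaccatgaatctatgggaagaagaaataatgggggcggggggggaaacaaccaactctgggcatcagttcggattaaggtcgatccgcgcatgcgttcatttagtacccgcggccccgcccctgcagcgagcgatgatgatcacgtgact
Mcl1: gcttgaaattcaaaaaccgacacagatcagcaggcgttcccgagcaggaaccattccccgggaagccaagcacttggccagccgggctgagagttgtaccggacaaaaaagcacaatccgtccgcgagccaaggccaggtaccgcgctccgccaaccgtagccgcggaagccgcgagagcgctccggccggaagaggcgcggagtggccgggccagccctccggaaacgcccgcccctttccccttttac
Bcl2: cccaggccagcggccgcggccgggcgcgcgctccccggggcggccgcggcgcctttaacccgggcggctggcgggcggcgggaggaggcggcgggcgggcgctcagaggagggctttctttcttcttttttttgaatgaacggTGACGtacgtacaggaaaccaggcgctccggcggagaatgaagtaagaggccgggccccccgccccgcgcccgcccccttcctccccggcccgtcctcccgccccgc
The Bcl2 window had a GC content of 74.8% and 36 CpG dinucleotides, that of Mcl1 64.4% and 26, and that of Bax 54.0% and 14, beside medians of 52.4% and 6 over 32841 such windows. TGACG, searched on both strands, stood once in the Bcl2 window, 107 bases before the start, and in 1 of the windows of Bbc3. Counting alternative starts, 2 of 15 windows of 9 members held it, against 17.77% of all windows. Pmaip1 was not looked up. Windows of Bad, Bak1, Bcl2l1 and Bid overlap annotated exons, that of Bak1 and some of Bcl2l1 over all 250 bases. The full element TGACGTCA, which contains that core, was in none of the 15 (1.55% of all windows), nor was TGATGNAA, a C/EBP-ATF composite element (3.45% of all windows). These are matches of letters, not sites shown to be bound.

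Bax, the main pore former, showed the clearest separation of the groups. It had 109, 111 and 111 CPM in PTHrP replicates 1 to 3 and 98.1, 94.4 and 101 CPM in DsRed replicates 1 to 3. All 3 PTHrP libraries were above all 3 DsRed libraries, with means of 110 ± 1.19 and 97.9 ± 3.42 CPM (SD, n = 3). The log2 fold change was 0.17 (approximate standard error, SE, 0.06) and its 95% interval 0.05 to 0.30, which corresponds to 1.03-fold to 1.23-fold. The adjusted p was 0.399. Leaving out 1 library at a time gave 0.15 to 0.20, and the interval reached below 0 without DsRed replicate 2. Bax lies on chromosome 7 at 45461697 to 45466898. It shares 192 exon bases (12.2% of its exon length) with Gm45808 on the same strand, a gene with 0 counts in every library. How reads in these shared bases were counted is not given in the sources used here, and the 0 counts do not show it.

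Bak1, the other pore former, had few counts. The counts were 89, 38 and 98 for PTHrP replicates 1 to 3, against 79, 72 and 61 for DsRed replicates 1 to 3. PTHrP replicate 2 was the lowest of the 6, and the groups overlapped. The log2 fold change was 0.07 with an interval of -0.71 to 0.84 (adjusted p = 0.971), and leaving out PTHrP replicate 2 gave 0.37, leaving out PTHrP replicate 1 or 3 gave -0.11, and leaving out DsRed replicate 3 gave -0.05. Bak1 (chromosome 17 at 27019810 to 27029009) shares 437 exon bases with Ggnbp1 on the opposite strand, at 0.450 CPM with PTHrP and 0.377 CPM with DsRed. How the counting treated strand is not given in the sources used here. If strand was not used, reads in such shared bases cannot be told apart.

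**Figure D2:**
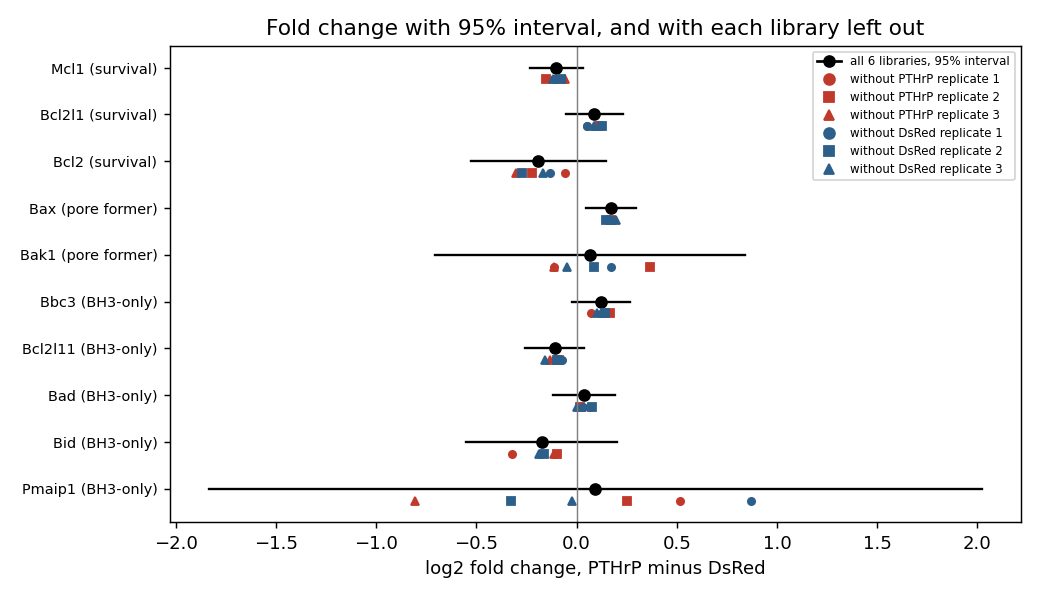
Log2 fold change of each member, PTHrP minus DsRed: black points and lines give the fit of all 6 libraries with its 95% interval, and coloured points below give the fit without the library named in the key. The interval of Bax alone lies above 0, and those of Bak1 and Pmaip1 are the widest.

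Among the survival genes, Mcl1 had 302.5, 327.5 and 285.5 CPM in the PTHrP libraries and 323.5, 338 and 321 CPM in the DsRed libraries. PTHrP replicates 1 and 3 were below every DsRed library, while PTHrP replicate 2 lay among them. The log2 fold change was -0.10 (SE 0.06, interval -0.24 to 0.03, adjusted p = 0.671). Without PTHrP replicate 2 it was -0.15 (interval -0.26 to -0.05, adjusted p = 0.170, where 0.954% of all genes were called), and with library quality weights -0.17 (adjusted p = 0.113). Without PTHrP replicate 3 it was nearer 0, at -0.06 (interval -0.21 to 0.09). Mcl1 lies on chromosome 3 at 95658788 to 95663176.

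Bcl2l1 had 92.6, 85.6 and 87.4 CPM with PTHrP and 79.2, 87.6 and 83.2 CPM with DsRed. The groups overlapped, with a log2 fold change of 0.09 (SE 0.06, interval -0.05 to 0.23, adjusted p = 0.742). The gene lies on chromosome 2 at 152780668 to 152831728. Bcl2 had 4.89, 6.32 and 6.91 CPM with PTHrP and 7.48, 6.09 and 7.13 CPM with DsRed. PTHrP replicate 1 was the lowest library, and the fold change of -0.19 (interval -0.53 to 0.15, adjusted p = 0.763) was -0.06 without it. Bcl2 lies on chromosome 1 at 106538178 to 106714274, and 558 of its exon bases are shared with an antisense RNA at 0.104 CPM with PTHrP and 0.0540 CPM with DsRed.

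Of the BH3-only genes, Bbc3 had 94.8, 83.1 and 88.1 CPM in the PTHrP libraries and 82.1, 83.4 and 78.9 CPM in the DsRed libraries. PTHrP replicates 1 and 3 were above all DsRed libraries, and PTHrP replicate 2 lay within their range. The log2 fold change was 0.12 (SE 0.07, interval -0.02 to 0.27, adjusted p = 0.629), 0.17 without PTHrP replicate 2 (interval 0.05 to 0.29, adjusted p = 0.201), and 0.07 without PTHrP replicate 1 (interval -0.09 to 0.23). Bbc3 lies on chromosome 7 at 16308393 to 16318205. Bcl2l11, on chromosome 2 at 128126038 to 128162547, had 71.7, 69.8 and 73.7 CPM with PTHrP and 81.7, 78.5 and 72.2 CPM with DsRed. DsRed replicate 3 lay with the PTHrP libraries, so the groups overlapped. The log2 fold change was -0.11 (SE 0.07, interval -0.26 to 0.04, adjusted p = 0.676), -0.16 without DsRed replicate 3 (interval -0.31 to -0.01), and -0.07 without DsRed replicate 1 (interval -0.25 to 0.10). Bbc3 and Bcl2l11, named above as links from ER stress, thus had fold changes of opposite sign. Both intervals included 0 and neither gene passed the test.

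Bad had 46.8, 50.4 and 49.3 CPM with PTHrP and 47.4, 50.2 and 45.4 CPM with DsRed. The values interleaved, and the log2 fold change was 0.04 (interval -0.12 to 0.19, adjusted p = 0.919). Bad lies on chromosome 19 at 6941861 to 6951899 and shares 524 bases, 20.5% of its exon length, with Gpr137 on the opposite strand (40.6 CPM with PTHrP and 36.8 CPM with DsRed). Bid had 3.44, 2.58 and 2.63 CPM with PTHrP and 3.25, 3.30 and 3.20 CPM with DsRed. PTHrP replicates 2 and 3 were below the DsRed libraries and PTHrP replicate 1 above them, for a log2 fold change of -0.18 (interval -0.55 to 0.20, adjusted p = 0.820), -0.32 without PTHrP replicate 1, -0.10 without PTHrP replicate 2 and -0.11 without PTHrP replicate 3. Bid, on chromosome 6 at 120891930 to 120916853, shares 628 bases (17.7% of its exon length) with Bcl2l13 on the opposite strand, a BCL2-like mitophagy receptor gene at 135 CPM with PTHrP and 139 CPM with DsRed.

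Pmaip1 was almost absent from these libraries. Its counts were 4, 10 and 28 for PTHrP and 23, 4 and 11 for DsRed, and each group held both high and low libraries. Its fold change of 0.09 on the log2 scale had an interval of -1.84 to 2.02 (adjusted p = 0.982), that is 0.280-fold to 4.06-fold. The sign turned when single libraries were left out: the value became -0.80 when PTHrP replicate 3 was dropped, -0.33 when DsRed replicate 2 was, and -0.02 when DsRed replicate 3 was.

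For 8 of the 10 members the 95% interval lay within a 1.5-fold change on both sides, beside 50.1% of all tested genes. The exceptions were Bak1 and Pmaip1, those with the fewest counts. Leaving out 1 library gave 6 to 8 members, since the lower bound of Bid passed 1.5-fold without PTHrP replicate 1 or any 1 of the DsRed libraries, and that of Bcl2 without PTHrP replicate 3 or DsRed replicate 2. The share of all genes within 1.5-fold was not computed for those fits. The upper bounds of these 8 were highest for Bax (1.23-fold), Bbc3 (1.20-fold) and Bcl2l1 (1.17-fold). On the lower side the bounds were 0.682-fold for Bid, 0.694-fold for Bcl2, 0.837-fold for Bcl2l11 and 0.850-fold for Mcl1. The intervals are for single genes and are not adjusted for their number.

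A ratio of 2 transcripts within a library does not depend on how libraries are scaled. Because its genes were chosen with their values known, each ratio is given as a description with no test. How often ratios of other gene pairs separate the groups was not computed. The log2 ratio of Bax to Bcl2, per kb, was 7.02, 6.67 and 6.55 with PTHrP and 6.25, 6.49 and 6.37 with DsRed. All PTHrP libraries were above the DsRed libraries, by 0.37 on average, and by 0.24 without PTHrP replicate 1, whose ratio was the highest. In linear terms the level of Bax per kb of exon was 76.3 to 129 times that of Bcl2. This size rests on the length used: per kb of coding transcript the log2 ratio was 7.39, 7.05 and 6.92 with PTHrP and 6.63, 6.87 and 6.74 with DsRed.

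The log2 ratio of Bax to Mcl1, the main survival transcript, was -0.36, -0.45 and -0.24 with PTHrP and -0.60, -0.72 and -0.55 with DsRed. The means were -0.35 ± 0.10 and -0.63 ± 0.09 (SD, n = 3), a difference of 0.28 that stayed between 0.22 and 0.33 when 1 library was left out. The sign of the ratio itself rests on the length used: per kb of coding transcript it was 0.21, 0.12 and 0.32 with PTHrP and -0.04, -0.16 and 0.02 with DsRed. Bbc3 to Mcl1 was -0.99, -1.29 and -1.01 with PTHrP and -1.29, -1.33 and -1.34 with DsRed, so PTHrP replicate 2 and DsRed replicate 1 were alike. Bcl2l11 to Mcl1 differed by -0.01 between the groups, within the spread of the libraries (SD 0.14 and 0.09), and Bax to Bcl2l1 by 0.09 (SD 0.07 and 0.11). Bad to Bcl2l1 differed by -0.05 (SD 0.11 and 0.07). Summed over roles, the log2 ratio of pore formers to survival genes was -0.65, -0.71 and -0.54 with PTHrP and -0.85, -0.98 and -0.81 with DsRed. That of BH3-only to survival genes was -0.59, -0.75 and -0.55 with PTHrP and -0.72, -0.77 and -0.80 with DsRed, with groups that overlapped. Bax made up 99.4% to 99.7% of the pore formers and Mcl1 80.8% to 84.0% of the survival genes. The ratio of pore formers to survival genes thus largely repeats that of Bax to Mcl1.

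**Figure D3:**
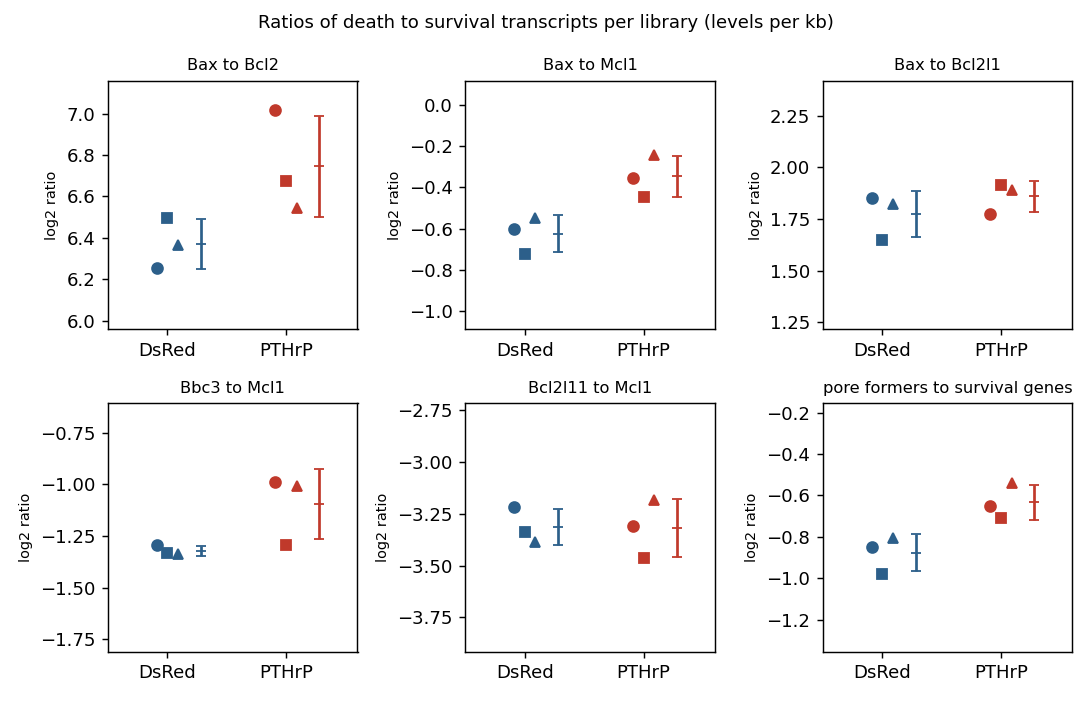
Log2 ratios of death to survival transcripts (levels per kb) in each library, DsRed in blue and PTHrP in red, with circles, squares and triangles for replicates 1, 2 and 3 and bars for mean ± SD (n = 3); each axis spans the same range of log2 units. Bax to Bcl2, Bax to Mcl1 and pore formers to survival genes were higher in every PTHrP library than in every DsRed library, and Bcl2l11 to Mcl1 was not. The ratios named as higher share Bax, so they are not separate observations. Bbc3 to Mcl1 was also higher with PTHrP, though PTHrP replicate 2 and DsRed replicate 1 were alike at -1.29. It shares Mcl1 with Bax to Mcl1.

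The rest of the pathway was followed in 6 lists of 84 genes, of which 77 were tested. None of the 77 passed in edgeR, limma-voom or its weighted form, nor in DESeq2, which gave 6 of them no adjusted p. With an unadjusted p under 0.05 there were 6 in edgeR (7.79% of the 77, beside 8.90% of all genes) and 6 in DESeq2 (7.79%, beside 8.72%). There were 8 in limma-voom (10.39%, beside 9.30%) and 15 in its weighted form (19.48% of the 77, beside 16.8% of all genes in that fit). The groups did not overlap for 18 of them (23.4%, beside 16.3% of all genes).

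Of 16 other BCL2 family genes 11 were tested, 6 with positive and 5 with negative fold changes and a median of 0.05. Bcl2a1a, Bcl2a1b, Bcl2a1d and Bcl2l10 had 0 to 10 counts over all 6 libraries. Bcl2l2, the survival gene for BCL-W, had 3.62 CPM with PTHrP and 3.32 CPM with DsRed. The smallest p values were those of the BH3-only genes Hrk (log2 fold change 0.46, adjusted p = 0.671) and Bik (0.75, adjusted p = 0.726) and of Bcl2l12 (-0.68, adjusted p = 0.693), all at or under 1.82 CPM in the group means.

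Of 17 tested genes of the apoptosome, the caspases and their inhibitors, 6 had positive and 11 negative fold changes, with a median of -0.06. Diablo (SMAC), which is released from mitochondria and blocks caspase inhibitors, had 6.52, 5.76 and 5.93 CPM with PTHrP and 8.11, 7.33 and 7.57 CPM with DsRed. All PTHrP libraries were lower, at a log2 fold change of -0.34 (adjusted p = 0.426). Htra2, a mitochondrial protease released with it, had 0.26 (adjusted p = 0.463), and Cycs, cytochrome c, -0.20 (adjusted p = 0.487).

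The 12 mitochondrial and ER partners had a median of 0.01, with 7 positive and 5 negative. Tmbim6, the ER protein BAX inhibitor 1, had -0.15 (adjusted p = 0.617), Mtch2, the mitochondrial receptor of BID, 0.09 (adjusted p = 0.650), and Vdac1, an outer membrane channel, 0.13 (adjusted p = 0.727).

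Among 13 regulators of member transcription, 6 fold changes were positive and 7 negative (median -0.02). Creb1, the cAMP-responsive factor that is known to act on Bcl2 and Mcl1, had 70.6, 61.9 and 71.1 CPM with PTHrP and 86.7, 81.5 and 78.0 CPM with DsRed. All PTHrP libraries were lower, at -0.27 (SE 0.07, adjusted p = 0.337). Stat3, an activator of Mcl1, had -0.17 (adjusted p = 0.520), and E2f1 0.12 (adjusted p = 0.575). The mean level of Trp53 (p53) was 181 CPM with PTHrP against 186 CPM with DsRed. Ddit3 (CHOP), which induces Bcl2l11 and Bbc3 in ER stress, stood at 116 CPM against 117 CPM. Their fold changes of -0.03 and -0.02 did not pass.

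**Figure D4:**
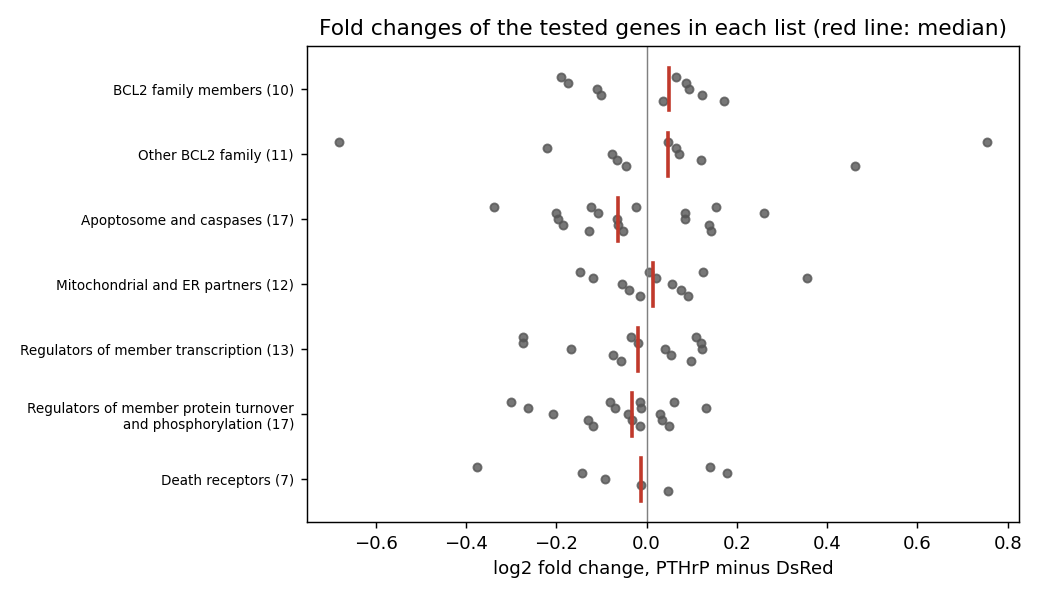
Log2 fold change, PTHrP minus DsRed, of each tested gene in the BCL2 family and in 6 pathway lists; grey points are genes, the red line is the median of the list, and numbers in brackets are the genes tested. List medians lie between -0.06 and 0.05, and no gene passed the test.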

How the data were processed

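The deposited values are raw counts per gene in 6 RNA-seq libraries. Per the submitters' processing notes, the tools were bcl2fastq, STAR and featureCounts 2.0.3 (from Subread), on the mouse build GRCm38. The sources used here do not give the annotation, the strand setting or the rule for reads with several matches. Of 55774 entries, 287 repeats of an identifier were removed, leaving 55487 genes. Groups and replicate numbers came from the titles. Nothing in the labels says that replicates were separate cultures, so the p-values refer to the spread between these 6 libraries alone, and that spread may be technical.

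Genes were filtered with filterByExpr (21141 kept), scaled with TMM factors and tested with the edgeR 4.0.16 quasi-likelihood test (robust, group term, two-sided, R 4.3.3), with Benjamini-Hochberg adjustment over all tested genes and a threshold of 0.05. Fold changes are PTHrP minus DsRed. An approximate SE was taken as the absolute log2 fold change over the square root of F, and 95% intervals use it with the test's degrees of freedom. The edgeR fit and its intervals, and no other step, were tested on simulated counts. These were drawn with a common dispersion for all genes, which the data need not have. Exon lengths, positions and overlaps came from GENCODE M21, and the 250-base windows from RefSeq (GRCm38.p6), in which 9 members were looked up. Alternatives were other factors and filters, DESeq2 1.42.0, limma 3.58.1 voom with and without quality weights, the replicate number as a term, Pthlh removed and each library left out. The coding transcript length was added after the data were seen.

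The members and lists were chosen with earlier results of these data known. All 10 members are named, together with Pthlh, and of each list the genes past the threshold or, where none passed, up to 3 with the smallest p. Bcl2l2, Trp53, Ddit3 and the BCL2A1 and Bcl2l10 genes were named in addition for their roles, after their values were seen.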

Additional observations from a re-analysis of the deposited data

How the results depend on the processing

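No BCL2 family member and no pathway gene passed in any of the 16 alternatives in which it had an adjusted p (DESeq2 gave none to Bak1, Pmaip1 and 6 pathway genes), and Bcl2, Bcl2l1, Mcl1, Bcl2l11, Bbc3, Bid, Bad and Bax kept the sign of their fold change in all of them. The smallest adjusted p of Bax was 0.0897, with library quality weights, and over its alternatives it reached 0.949. Bak1 changed sign in limma-voom (-0.005), with the replicate block (-0.0037) and without single libraries, where it ranged from -0.11 to 0.37. Pmaip1 ranged from -0.80 to 0.87 without single libraries and did not reach the filter of 1 CPM in 3 libraries, nor did Bak1. The cause was not tested. Calls over all genes, 9 with all libraries, were 14 with library sizes alone, 13 with upper-quartile factors, 220 with no filter on low counts, 136 in DESeq2, 188 with quality weights, and 2 (without DsRed replicate 2) to 213 (without PTHrP replicate 2) when 1 library was left out. With the replicate block there were 7 calls, no member among them, and 7 members in place of 8 had intervals within 1.5-fold. The share of all genes within 1.5-fold was not computed for that fit. Same-numbered libraries correlated at 0.02, -0.11 and 0.02 in their deviations from the group means across genes, and not every library correlated best with its own number, so the numbers are not taken to pair the samples. Leaving out 1 library moved no ratio by more than its SD within groups, pooled over both, although Bbc3 to Mcl1 moved from 0.22 to 0.32 without PTHrP replicate 2, beyond the SD of the DsRed libraries alone (0.03), and Bcl2l11 to Mcl1 and Bad to Bcl2l1, both near 0, changed sign. Pmaip1 and Bak1 had few counts, which limits the precision of their values.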

Other observations

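Death receptors and the enzymes that act on the BCL2 family proteins were not described above. Of 8 death receptor pathway genes 7 were tested, with 3 positive and 4 negative fold changes and a median of -0.01, and Fas, a receptor linked to beta cell loss, had 26 counts over the 6 libraries. Cflar, the caspase-8 inhibitor FLIP, had 18.5, 13.7 and 14.3 CPM with PTHrP and 22.7, 19.0 and 18.6 CPM with DsRed. Every PTHrP library was below every DsRed library, PTHrP replicate 1 only narrowly, at a log2 fold change of -0.38 (SE 0.13, edgeR adjusted p = 0.406). Ripk1, a kinase of the same receptor complexes, had -0.14 (adjusted p = 0.583), and the receptor gene Tnfrsf1a 0.14 (adjusted p = 0.630). None of the 7 passed in edgeR or limma-voom, or in DESeq2, where Tnfrsf10b had no adjusted p. In each of these fits 1 of the 7 had an unadjusted p under 0.05. The shares of all genes at that level were 8.90% in edgeR, 9.30% in limma-voom and 8.72% in DESeq2.

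The 17 regulators of protein turnover and phosphorylation had 5 positive and 12 negative fold changes, with a median of -0.03. Btrc, a ubiquitin ligase subunit that is known to act on MCL1, had 0.13 (adjusted p = 0.584), Ppp3cb, a catalytic subunit of calcineurin, which dephosphorylates BAD, had -0.13 (adjusted p = 0.632), and Ywhae, a 14-3-3 protein of the family that holds phosphorylated BAD, had -0.08 (adjusted p = 0.658). None passed in edgeR or limma-voom, or in DESeq2, where Pim1 had no adjusted p. In these fits none had an unadjusted p under 0.05 either. Limma-voom with quality weights gave 2 of the 17 at that level, beside 16.8% of all genes in that fit.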
